A study of Mus musculus with 20 samples.

Results

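The genes described here are 34 genes of ribosome production and cell growth, chosen by name: all microarray probes whose gene name equals a member were taken, and the brightest probe stood for its gene. All 34 had a probe, out of 25034 gene symbols on the array. The label under which they were gathered calls them MYC-driven ribosome biogenesis genes. By known function 23 of them are ribosome factors, and the other 11 are enzymes and carriers of polyamine, nucleotide and folate metabolism (Odc1, Srm, Cad, Dctpp1, Slc19a1), mitochondrial proteins (Hspd1, Hspe1, Phb, Tbrg4, Tfb2m) and a scaffold of the tRNA synthetase complex (Aimp2).

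Ribosomes are built in the nucleolus, where RNA polymerase I transcribes the ribosomal RNA precursor, small nucleolar ribonucleoproteins modify and guide it, and assembly factors fold and cut it into the small and large subunits. The transcription factor MYC, which binds DNA with its partner MAX at a short palindrome called the E-box, is known for raising many of these genes together with those that supply nucleotides, polyamines and mitochondrial proteins to growing cells. In the intestinal epithelium such genes are known to be most active in the dividing cells of the crypts, and RAF, MEK and ERK kinases are among the signals that act on MYC.

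The 20 arrays each held intestinal tissue of 1 C57BL6/j mouse. Cre control mice (6 arrays) carried VillinCreER/0, a tamoxifen-inducible Cre recombinase driven by the Villin promoter of the gut epithelium, and BRAFV600E mice (6 arrays) carried VillinCreER/0 with BrafV600E-LSL/+, an allele that yields the mutant kinase once Cre has removed a stop cassette. Mice of both groups were 8 to 12 weeks old, received 3 daily doses of 2 mg tamoxifen and were sampled 3 days after the last dose. Vehicle and MEKi mice (4 arrays each) received 2 tamoxifen injections followed by 3 injections of carrier or of the MEK inhibitor PD184352; their genotype, with the mutant allele, comes from the study and not from the labels, and their age is not given in the labels. A treatment protocol in the labels speaks of atorvastatin, which no group here received by its other labels, and it was set aside. Whole tissue was measured, so fewer cells of a type and less RNA per cell cannot be told apart.

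Between 60.8% and 76.8% of probes per array were well above background. The 8 epithelial markers (Vil1, Cdx1, Cdx2, Epcam, Krt20, Cdh17, Krt8, Krt19) averaged 5.37 to 6.28 log2 units above each array's 75th percentile of probe intensity, the scale of every level below, so the tissue matched its label. The mutant allele differs from the normal one by a point change that these probes do not read. Of 17 genes known to follow MAPK activity, 12 passed the test in BRAFV600E (11 higher and 1 lower) and 6 passed under MEKi, all lower. Of all genes tested, 12.9% passed in BRAFV600E and 1.94% under MEKi. Etv4 rose by 2.50 log2 units in BRAFV600E and fell by 2.95 under MEKi. The Vehicle 2 array stood apart: all 8 exocrine pancreas markers were highest there, by 8.56 to 14.84 log2 units over the median of the other 19 arrays. BRAFV600E arrays 3 to 6 lay on a slide of their own, with no response to the labelling spike-ins (slope 0), and Cre control arrays 2, 3 and 5 had low spike-in slopes (0.759 to 0.843, against 1.05 to 1.07 on the other control arrays). MEKi and Vehicle arrays lay on 1 slide, each group in a row of its own, and the effect of the row cannot be told apart from that of the inhibitor. Levels of 4 Y-linked genes were high on all 4 MEKi arrays, 2 of 4 Vehicle arrays, 4 of 6 BRAFV600E arrays and 3 of 6 Cre control arrays.

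Promoter sequences, from RefSeq on build GRCm38, are shown for 4 of the members that carry the E-box letters, since the label names MYC, and for 2 called members that do not. The promoter table held 28 of the 34 members, with 250 bases before and 50 bases from the gene start on, and Rrs1, Srm, Rrp12, Bop1, Fbl and Npm1 were not among them. The letters CACGTG, which read the same on both strands, were present in the windows of 8 of the 28 members (28.6%), against 2187 of 27025 genes (8.09%) in the whole table, and against 12.1% of the 8037 genes whose windows were at least as rich in G and C as the median member. Those 8037 genes were not matched to the members: their median share of G and C was 66%, beside 59.7% for the members. In the part upstream of the start the letters were present for 3 members (10.7%) and for 6.86% of all genes, and for 10.4% of the genes at least as rich in G and C, close to the members' share. The members with a match were Hspd1, Nop2 and Phb upstream of the start, and Pes1, Wdr43, Grwd1, Utp20 and Mybbp1a past it, with matches that began between base 3 and base 41 of the transcript. Among 7 called members with a promoter entry, 2 had a match, Hspd1 and Nop2, and Ncl, Cad, Nop58, Nop16 and Nolc1 had none.

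Capitals mark CACGTG in the stretches that follow. The first 3 run from 110 bases before the gene start to 10 bases past it, and that of Phb covers 120 bases at the far end of its window. They lie at chr6:125131773-125131892 on the plus strand (Nop2), chr1:55088234-55088353 on the minus strand (Hspd1), chr11:3963865-3963984 on the plus strand (Pes1) and chr11:95666707-95666826 on the plus strand (Phb).
Nop2: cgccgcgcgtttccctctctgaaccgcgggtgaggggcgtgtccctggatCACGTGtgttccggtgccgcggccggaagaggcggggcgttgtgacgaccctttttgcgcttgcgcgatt
Hspd1: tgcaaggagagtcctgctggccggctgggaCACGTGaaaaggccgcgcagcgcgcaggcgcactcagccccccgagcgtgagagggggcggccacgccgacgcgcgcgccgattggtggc
Pes1: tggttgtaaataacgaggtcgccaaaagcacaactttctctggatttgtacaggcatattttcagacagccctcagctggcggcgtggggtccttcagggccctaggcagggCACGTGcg
Phb: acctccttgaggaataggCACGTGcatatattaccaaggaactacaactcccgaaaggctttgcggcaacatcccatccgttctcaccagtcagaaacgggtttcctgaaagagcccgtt
Counted from the gene start, the match began at -60 in Nop2, at -80 in Hspd1, at -232 in Phb and at base 3 of the Pes1 transcript. Cad (chr5:31054670-31054789, plus strand) and Nolc1 (chr19:46075737-46075856, plus strand), which were called in 1 comparison each, had no match in their windows, which says only that these letters are not in those stretches.
Cad: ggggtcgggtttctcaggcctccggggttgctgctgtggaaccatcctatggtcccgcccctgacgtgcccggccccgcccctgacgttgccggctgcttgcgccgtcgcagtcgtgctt
Nolc1: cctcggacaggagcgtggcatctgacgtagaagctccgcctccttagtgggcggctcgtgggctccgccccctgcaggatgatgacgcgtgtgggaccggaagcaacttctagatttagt

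Hspd1 and Hspe1, which encode the large and small subunits of the mitochondrial chaperonin, are neighbours read in opposite directions. The Hspe1 start at base 55088148 of chromosome 1 lay between the 2 listed Hspd1 starts, at bases 55087932 and 55088243, of which the first was 216 bases away and the second nearer.

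The first comparison asked what expression of the mutant kinase changed within days. In BRAFV600E intestine 4 members rose: Hspd1 (1.73-fold), Cad (1.68-fold), Ncl (1.60-fold) and Srm (1.44-fold). No member fell. Over all genes tested, 12.9% were called, that is, passed the test (limma, Benjamini-Hochberg adjusted p under 0.05), and 6.4% were called with higher levels, beside 11.8% of the members. Most members were fitted slightly higher: 32 of 34, against 9192 of 19037 genes overall (48.3%), with a median log2 fold change of 0.35 beside -0.02 for all genes. At an unadjusted p under 0.05 there were 17 members, all higher, beside 2869 of the 19037 genes higher and 2915 lower. In 1 member, Cad, every BRAFV600E array lay above every Cre control array, a pattern that 4.23% of all genes showed.

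**Figure D1:**
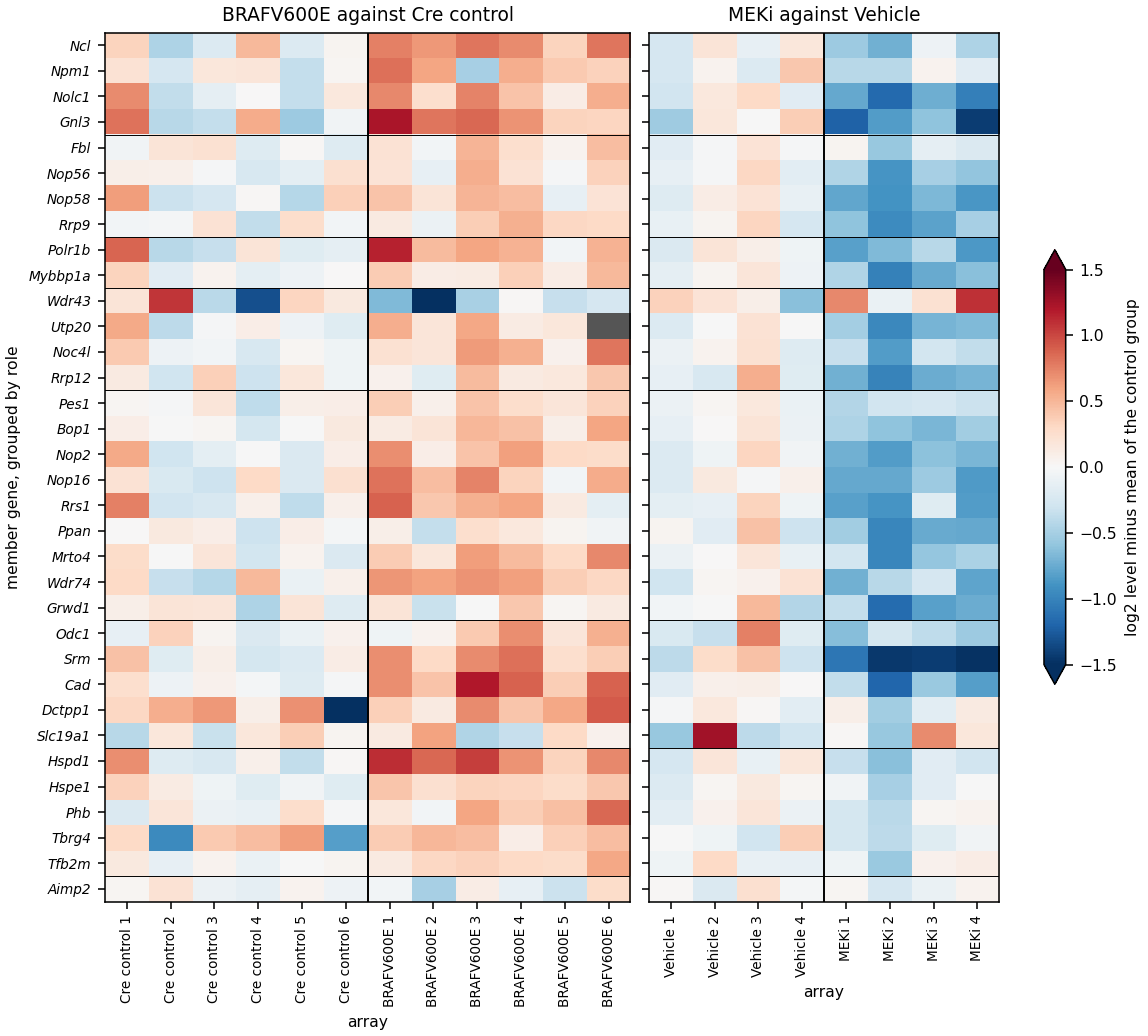
Log2 level of each member (rows, grouped by role in the order used in the text) on each array (columns), minus the mean of the control group of the same comparison (Cre control on the left, Vehicle on the right); the dark grey cell is the array on which the Utp20 spot was left out. Most rows are redder in BRAFV600E, most ribosome factor rows are blue under MEKi, and Cre control 1 is redder than the other control arrays in many rows.

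The second comparison asked what depended on MEK, the kinase downstream of BRAF. Under MEKi 5 members fell: Srm (2.57-fold lower), Nolc1 (1.90-fold), Nop58 (1.75-fold), Nop16 (1.66-fold) and Nop2 (1.64-fold). No member rose. Over all genes tested, 1.94% passed the test and 0.889% passed it with lower levels, beside 14.7% of the members. Of the members 32 of 34 were fitted lower, against 8763 of 19230 genes, and their median log2 fold change was -0.57 beside 0.04 for all genes. At an unadjusted p under 0.05 there were 23 members, all lower, beside 1413 of the 19230 genes lower and 1737 higher. In 19 of the 34 members every MEKi array lay below every Vehicle array, where 5.83% of all genes did so.

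Without the Vehicle 2 array, which carried the pancreas RNA, these counts were 32 of 34 members fitted lower, a median of -0.575, and 20 members without overlap where 8.15% of all genes had none. The number called was then 1, Srm. Leaving out any single array of the 8 left 0 to 2 members called and 19 to 22 without overlap.

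**Figure D2:**
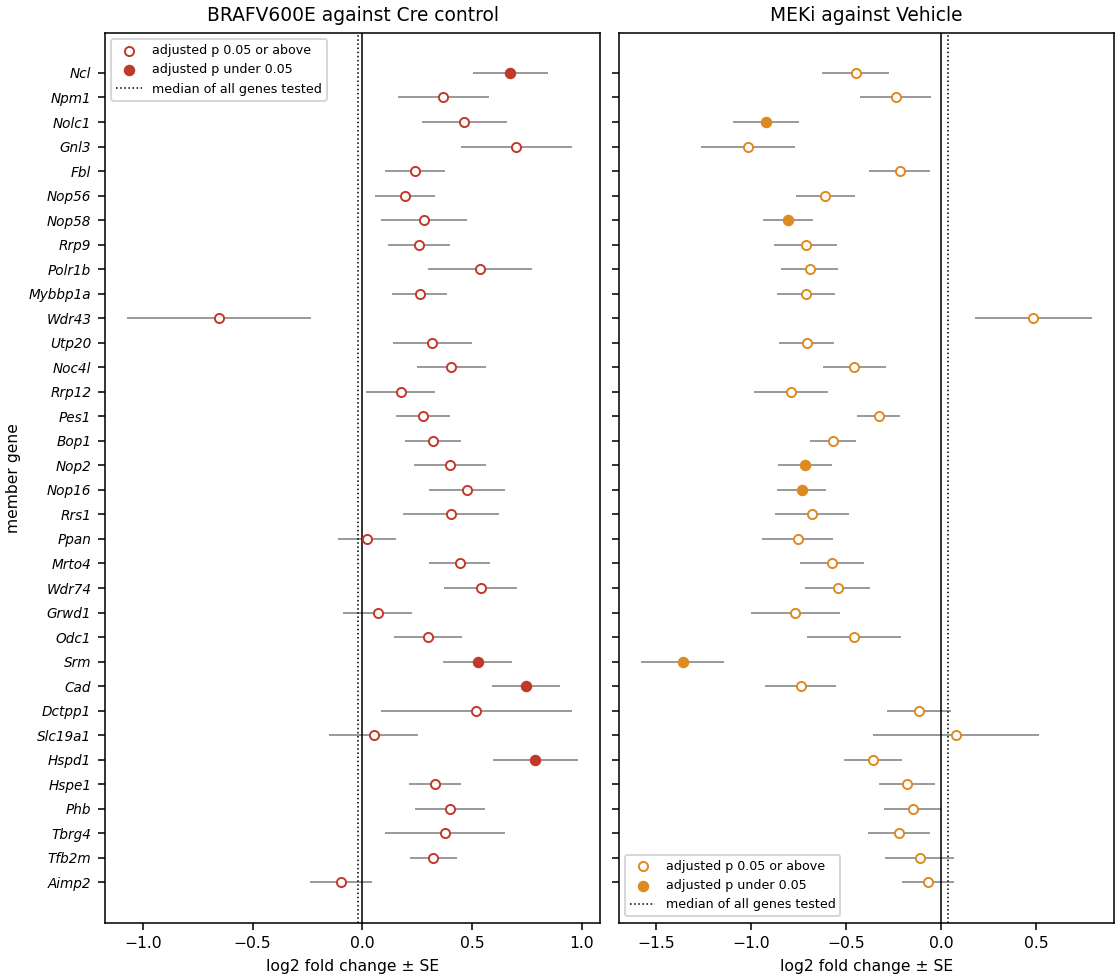
Log2 fold change of each of the 34 members with its standard error (bars) in BRAFV600E against Cre control (left) and MEKi against Vehicle (right); filled points passed the test and the dotted line is the median of all genes tested. On the left 32 points lie above 0 and 4 are filled, and on the right 32 lie below 0 and 5 are filled, with Wdr43 on the opposite side in both panels.

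By role, the 4 nucleolar scaffold and chaperone genes had the largest median in BRAFV600E, 0.57, and a median of -0.69 under MEKi. Ncl encodes nucleolin, an abundant nucleolar protein that binds ribosomal RNA precursors. Its level was 2.64, 3.03 and 3.60 (lowest, median and highest) in Cre control and 3.44, 3.84 and 3.91 in BRAFV600E. The groups overlapped in the lowest BRAFV600E array and the highest 2 control arrays, and the log2 fold change was 0.68 ± 0.17 (SE, n = 6 and 6; limma adjusted p = 0.0235). In the second comparison Ncl read 3.68, 4.12, 3.80 and 4.10 in Vehicle and 3.38, 3.20, 3.84 and 3.46 under MEKi, a difference of -0.45 ± 0.18 (limma adjusted p = 0.257), with MEKi 3 inside the Vehicle range. A second Ncl probe, in a fit over all probes, gave 0.21 and -0.69 and passed in neither comparison.

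Nolc1 encodes a chaperone that shuttles between nucleolus and cytoplasm and binds small nucleolar ribonucleoproteins. Its Vehicle levels were 1.90, 2.34, 2.47 and 2.01 and its MEKi levels 1.41, 1.02, 1.44 and 1.16. The groups did not overlap, and the difference was -0.92 ± 0.17 (n = 4 and 4; limma adjusted p = 0.0412). In BRAFV600E it was 0.47 higher (adjusted p = 0.126). Gnl3, which encodes the nucleolar GTPase nucleostemin, had the largest fitted difference of the ribosome factors in both comparisons yet passed in neither. It was 0.70 ± 0.25 higher in BRAFV600E (limma adjusted p = 0.0847) and -1.02 ± 0.25 under MEKi (adjusted p = 0.0908), where Vehicle arrays read -1.46, -0.76, -0.93 and -0.56 and MEKi arrays -2.14, -1.76, -1.53 and -2.36. These groups did not overlap, but Vehicle 1 lay just above MEKi 3. Npm1, the nucleolar chaperone nucleophosmin, was 0.37 and -0.24 by its brightest probe and passed in neither. Its 2 other probes gave 0.96 ± 0.16 and 0.88 ± 0.17 in BRAFV600E and passed in the fit over all probes (limma adjusted p = 0.00376 and 0.00807), and gave -0.35 and -0.26 under MEKi without passing.

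The 4 members of the box C/D and U3 small nucleolar ribonucleoproteins differed little in BRAFV600E, by 0.20 to 0.28 log2 units with 0 passing (0 also at an unadjusted p under 0.05). Under MEKi they differed by -0.22 to -0.81. Nop58, a core protein of the particles that guide methylation of ribosomal RNA, read 2.01, 2.31, 2.40 and 2.09 in Vehicle and 1.42, 1.31, 1.53 and 1.33 under MEKi. These groups lay apart by more than the range of the MEKi arrays, with a difference of -0.81 ± 0.13 (limma adjusted p = 0.0267). Its partner Nop56 (-0.61, adjusted p = 0.103) and the U3 protein Rrp9 (-0.71, adjusted p = 0.0784) did not overlap between groups either and did not pass. Fbl, the methyltransferase fibrillarin of the same particles, was -0.22 with overlapping groups.

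Polr1b encodes the second largest subunit of RNA polymerase I and Mybbp1a a nucleolar protein tied to transcription of ribosomal RNA genes. Polr1b was 0.54 ± 0.24 higher in BRAFV600E (limma adjusted p = 0.150) with Cre control 1 at -0.30 against -1.58 to -0.98 on the other 5 control arrays. Under MEKi its levels of -1.45, -1.29, -1.04 and -1.49 lay below the Vehicle levels of -0.84, -0.43, -0.54 and -0.70, and the adjusted p was 0.0635. Mybbp1a gave 0.26 and -0.71 (adjusted p = 0.181 and 0.0610), again with no overlap between Vehicle and MEKi. Its other probes gave 0.62 ± 0.17, which passed in the fit over all probes (limma adjusted p = 0.0424), and 0.53 in BRAFV600E, and -0.71 and -0.90 under MEKi.

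Of the 4 small subunit factors 0 were called by limma in either comparison, with 1 at an unadjusted p under 0.05 in BRAFV600E and 3 under MEKi. Utp20, a scaffold of the small subunit processome, was -0.71 under MEKi (adjusted p = 0.0541), Rrp12, an export factor of the pre-40S particle, -0.79 (0.0925), and Noc4l, a nucleolar factor of small subunit maturation, -0.46 (0.217). In these 3 genes no MEKi array reached the Vehicle range. In BRAFV600E Utp20, Rrp12 and Noc4l were 0.32 (on 5 of the 6 BRAFV600E arrays, since a Utp20 spot marked as an outlier was left out), 0.18 and 0.41 higher and passed in none.

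Wdr43, also a processome component, was the exception in both comparisons. Its brightest probe was -0.65 ± 0.42 in BRAFV600E (limma adjusted p = 0.315) and 0.49 ± 0.31 under MEKi (adjusted p = 0.504), with Cre control arrays spread from 0.59 to 2.98 and BRAFV600E arrays from -0.28 to 1.93. Its other probe matched the same transcript (chr17:72007156-72007215, against chr17:72006968-72007027 for the brightest probe, build mm9) and gave 0.34 ± 0.14 and -0.63 ± 0.15. The probes thus disagreed in sign in both comparisons, and neither passed.

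**Figure D3:**
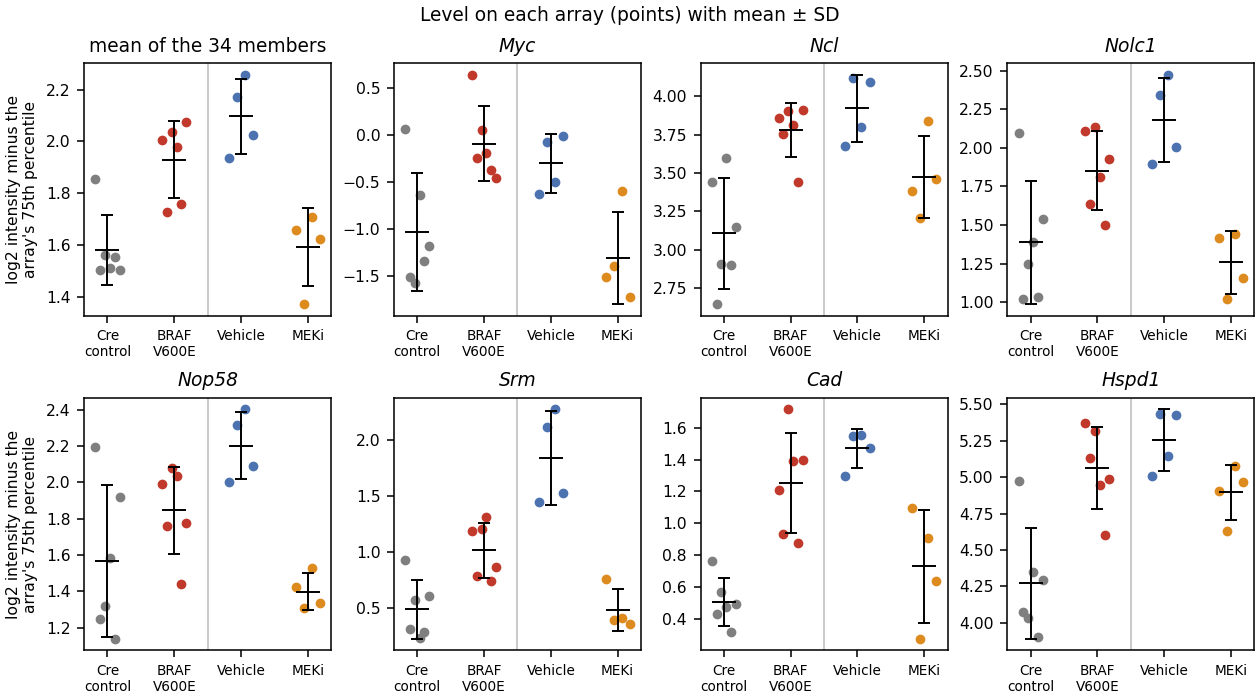
Level of the mean of the 34 members, of Myc and of 6 named members on each array (points), as log2 intensity minus the array's 75th percentile, with group mean and SD (black). Vehicle and MEKi arrays do not overlap for the member mean, Nolc1, Nop58, Srm and Cad, while Cre control 1 lies near or inside the BRAFV600E range in most panels.

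The 9 large subunit assembly genes were all fitted higher in BRAFV600E, by 0.02 to 0.54, and all lower under MEKi, by -0.77 to -0.33. In BRAFV600E 0 passed by limma and 6 of the 9 had an unadjusted p under 0.05. Wdr74, a factor of early large subunit particles, came nearest, with 0.54 ± 0.17 (limma adjusted p = 0.0503), followed by the Mrto4 gene for a stalk assembly protein at 0.44 ± 0.14 (adjusted p = 0.0531). Ppan (0.02) and Grwd1 (0.07) hardly differed there.

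Under MEKi all 9 had an unadjusted p under 0.05, 7 showed no overlap, and 2 passed. Of all 19230 genes 1413 were lower at that p, 5.83% showed no overlap with lower levels and 0.889% were called lower. Nop16 read -0.42, -0.06, -0.22 and -0.13 in Vehicle and -0.97, -0.97, -0.75 and -1.05 under MEKi, a difference of -0.73 ± 0.13 (limma adjusted p = 0.0333). Nop2, the methyltransferase of the large subunit RNA, read 2.84, 2.98, 3.36 and 2.98 against 2.32, 2.21, 2.43 and 2.35, a difference of -0.72 ± 0.14 (adjusted p = 0.0478). In both genes the MEKi arrays were tightly grouped and wholly below the Vehicle arrays. Pes1 and Bop1, which act together in a complex with WDR12, were -0.33 and -0.57 without overlap, Rrs1, a recruiter of the 5S ribonucleoprotein, was -0.68, and Ppan, which had not differed in BRAFV600E, was -0.75 (adjusted p = 0.0940).

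Among the metabolic members, Srm encodes spermidine synthase, which makes the polyamine spermidine. Its level was 0.23, 0.44 and 0.93 (lowest, median and highest) in Cre control and 0.74, 1.03 and 1.32 in BRAFV600E, with Cre control 1 inside the BRAFV600E range. The log2 fold change was 0.53 ± 0.16 (limma adjusted p = 0.0463). In the second comparison Srm read 1.45, 2.12, 2.28 and 1.53 in Vehicle and 0.76, 0.39, 0.41 and 0.36 under MEKi. The groups did not overlap, and the difference, -1.36 ± 0.22 (limma adjusted p = 0.0251), was the largest fitted for any member. All 3 Srm probes gave much the same, -1.36 to -1.29 under MEKi and 0.53 to 0.90 in BRAFV600E. Srm was the only member called in both comparisons. Of the 18574 genes tested in both, 0.657% were called higher in BRAFV600E and lower under MEKi. Leaving out 1 array ended the Srm call in 10 of 12 fits in BRAFV600E and in 5 of 8 under MEKi. The call was also lost in 8 of 13 other alternatives in BRAFV600E and in 2 of 10 under MEKi.

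Cad encodes the enzyme of the opening steps of pyrimidine synthesis, and is known both as a MYC target gene and, as a protein, as an ERK substrate. It read 0.32, 0.48 and 0.76 in Cre control and 0.88, 1.30 and 1.71 in BRAFV600E, the member whose groups did not overlap there. The difference was 0.75 ± 0.15 (limma adjusted p = 0.00968). Vehicle arrays read 1.30, 1.55, 1.55 and 1.48 and MEKi arrays 1.10, 0.28, 0.91 and 0.64, again without overlap, a difference of -0.74 ± 0.19 (adjusted p = 0.0990). Cad was thus the only member whose groups lay apart in both comparisons, which 1.79% of genes tested in both did with the same directions. A dimmer Cad probe gave -0.41 ± 0.46 and -0.02 ± 0.36.

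The other 3 metabolic members did not pass. Odc1, ornithine decarboxylase and the classic MYC target of the polyamine pathway, was 0.30 ± 0.15 in BRAFV600E (limma adjusted p = 0.215) and -0.46 ± 0.25 under MEKi (adjusted p = 0.425), where Vehicle 3 at 4.40 stood above 3.29 to 3.45 on the other 3 Vehicle arrays. Dctpp1, which clears noncanonical cytidine nucleotides, read 1.59 on Cre control 6 and 3.95 to 4.55 on the others, with a fitted difference of 0.52 ± 0.43 (n = 6 and 6) and of 0.065 ± 0.171 without that array. Slc19a1, the reduced folate carrier, was 0.05 and 0.08.

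Of the 5 mitochondrial members 1 was called, in BRAFV600E. Hspd1 read 3.90, 4.19 and 4.97 in Cre control and 4.60, 5.06 and 5.38 in BRAFV600E, overlapping only through Cre control 1, with a difference of 0.79 ± 0.19 (limma adjusted p = 0.0210). Its second probe gave 1.00 ± 0.22. Under MEKi Hspd1 was -0.36 ± 0.15 (adjusted p = 0.303), with Vehicle arrays at 5.01, 5.43, 5.15 and 5.43 and MEKi arrays at 4.91, 4.63, 5.08 and 4.97. MEKi 3 lay inside the Vehicle range.

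Hspe1 (0.33, adjusted p = 0.0784), Tfb2m, a mitochondrial transcription factor (0.32, adjusted p = 0.0657), Phb, prohibitin of the inner membrane (0.40, adjusted p = 0.112), and Tbrg4 (0.38, adjusted p = 0.382) were fitted higher by their brightest probes and did not pass. The other Hspe1 probes gave 0.50 ± 0.12, which passed in the fit over all probes (limma adjusted p = 0.0246), and 0.75 (adjusted p = 0.0579). Under MEKi the 5 mitochondrial members were fitted -0.36 to -0.11, with 0 called by limma, 1 at an unadjusted p under 0.05 and overlapping groups in all 5. Aimp2 was -0.10 and -0.07.

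In the fit over all probes, 29 probes of 21 members other than the brightest were tested in BRAFV600E. Of these 5 rose, for Npm1 (2 probes), Mybbp1a, Hspd1 and Hspe1, where 5.25% of all probes did, and 4 had the opposite sign to the brightest probe (Cad, Nop58, Rrp12 and Wdr43). Under MEKi 2 of 28 fell, both for Srm, where 0.415% of all probes did, and 2 had the opposite sign (Slc19a1 and Wdr43). For Npm1, Mybbp1a and Hspe1 the call in BRAFV600E thus depended on the probe. It also did for Ncl and Cad, whose other probes did not pass (limma adjusted p = 0.583 and 0.607). With the probes of a gene averaged, Ncl and Cad did not pass either (limma adjusted p = 0.117 and 0.684). In the fit over all probes no Srm probe passed in BRAFV600E (limma adjusted p = 0.0570 to 0.106).

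Set side by side, the 23 ribosome factors had a median of 0.32 in BRAFV600E with 1 called, 4.35% beside the 6.4% of all genes. Under MEKi their median was -0.69, with 4 called (17.4%, beside 0.889% of all genes called lower) and 17 without overlap (beside 5.83%). The 11 other members had a median of 0.38 in BRAFV600E with 3 called (27.3%). Under MEKi they had a median of -0.18 with 1 called (9.09%) and 2 without overlap. The difference between these 2 kinds of member was not tested. The comparisons share no array, and 31 of the 34 members were fitted higher in BRAFV600E and lower under MEKi, as were 32.6% of the 18574 genes tested in both. Wdr43 ran the other way in both, Slc19a1 was fitted slightly higher in both and Aimp2 slightly lower in both.

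**Figure D4:**
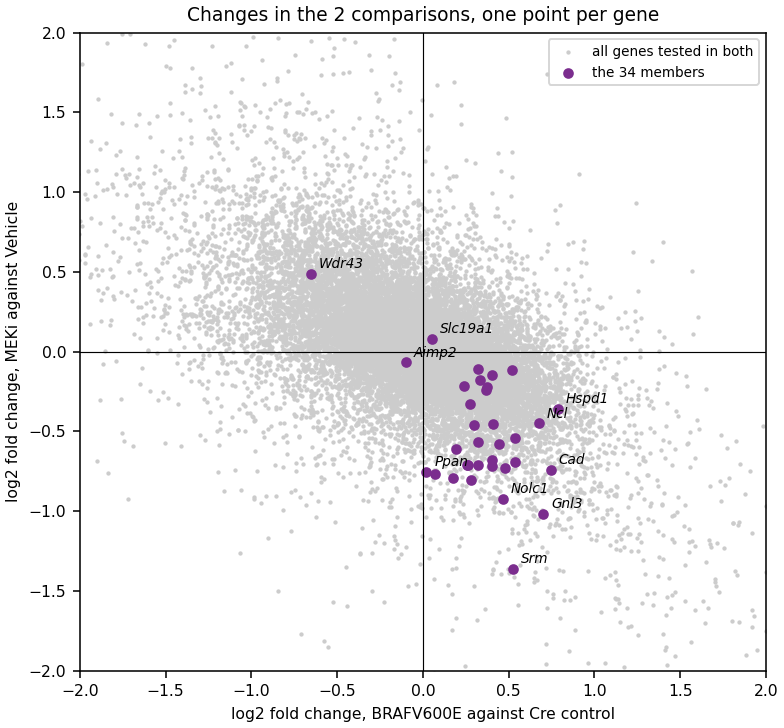
Log2 fold change in BRAFV600E against Cre control (horizontal) and MEKi against Vehicle (vertical) for the 34 members (purple) over all genes tested in both (grey), axes limited to -2 to 2. Of the members 31 lie to the right of 0 and below 0, and Srm is lowest.

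By its brightest probe, Myc was called higher in BRAFV600E, close to the threshold. Myc arrays read 0.06, -1.51, -1.58, -0.64, -1.34 and -1.19 in Cre control and 0.64, -0.25, 0.05, -0.19, -0.37 and -0.45 in BRAFV600E. Only Cre control 1 lay inside the BRAFV600E range, and the difference was 0.94 ± 0.28 (limma adjusted p = 0.0484). The call was lost with slide as a block (1.23, limma adjusted p = 0.0806), within slide 1 (adjusted p = 0.170) and with the Y-linked covariate (adjusted p = 0.0776). It was also lost with the probes averaged (0.39, limma adjusted p = 0.201) and in the fit over all probes (adjusted p = 0.0579). Leaving out 1 array ended it in 10 of 12 fits, all but those without Cre control 1 or Cre control 4. A second, dimmer Myc probe gave -0.16 ± 0.17 in BRAFV600E and -0.20 ± 0.16 under MEKi and passed in neither. By the brightest probe Myc was -1.01 ± 0.27 under MEKi (limma adjusted p = 0.111), with Vehicle arrays at -0.63, -0.07, -0.50 and -0.01 and MEKi arrays at -1.51, -1.40, -0.60 and -1.73. MEKi 3 reached the lowest Vehicle array.

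Mycn, the related factor, went the other way: it fell by 0.97 in BRAFV600E (SE 0.18, limma adjusted p = 0.00522), with no overlap. Under MEKi it was 0.76 ± 0.26 (limma adjusted p = 0.190), with groups that barely lay apart. MEKi 2, the lowest of its group, read -2.6204, and Vehicle 2, the highest of its group, -2.6255. With slide as a block, and within slide 1, the BRAFV600E difference of Mycn was -0.75 and no longer passed (limma adjusted p = 0.0761 and 0.141). The remaining 10 genes of the network passed in neither comparison. In BRAFV600E they were Mycl (-0.17), the partner Max (0.15), the MAX-binding repressors Mxd1 (0.20), Mxd3 (0.30), Mxd4 (-0.07), Mxi1 (0.22), Mnt (-0.02) and Mga (0.10), and Mlx (0.28) and its partner Mlxip (0.66, adjusted p = 0.0730). Under MEKi the same genes gave Mycl 0.49, Max -0.17, Mxd1 0.09, Mxd3 0.79, Mxd4 0.52, Mxi1 0.69 (adjusted p = 0.0818), Mnt -0.12, Mga 0.09, Mlx -0.11 and Mlxip -0.04. Mxd3 and Mxi1 were higher on every MEKi array than on any Vehicle array without passing.

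Other genes of ribosome assembly, from lists that hold none of the members, were described in the same way. Of 44 further processome genes 34 were fitted higher in BRAFV600E and 4 rose: Dcaf13 (0.78), Wdr36 (0.76), Pno1 (0.81) and Utp14a (0.43). Of 41 further large subunit factors 38 were fitted higher and 1 rose, the helicase gene Ddx21 (0.68). Of 13 snoRNP and assembly factors 2 rose, Snu13 (0.69) and Nop10 (0.55), and of 14 genes of RNA polymerase I 1 rose, Polr1e (0.49). None of these lists held a gene that fell. Their medians ran from 0.09 to 0.34. The shares that rose were 9.09% (processome), 2.44% (large subunit), 15.4% (snoRNP) and 7.14% (polymerase I), beside 6.4% of all genes.

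Under MEKi 37 of the 44 processome genes were fitted lower with 0 called by limma (19 at an unadjusted p under 0.05), and 40 of the 41 large subunit factors were fitted lower with 3 that fell: the remodelling ATPase gene Mdn1 (-0.97), Nle1 (-0.72) and Rrp1b (-1.02). Naf1, which assembles the pseudouridylation particles, fell by 0.84 among the 13 snoRNP genes. The shares called lower were 7.32% of the large subunit and 7.69% of the snoRNP genes, beside 0.889% of all genes. Every MEKi array was below every Vehicle array in 20 of the 41 large subunit factors and 15 of the 44 processome genes. The same held in 9 of the 13 snoRNP genes, and in 5.83% of all genes. Of the 14 polymerase I genes 10 were fitted lower, 1 without overlap, and 0 were called by limma (3 at an unadjusted p under 0.05).

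**Figure D5:**
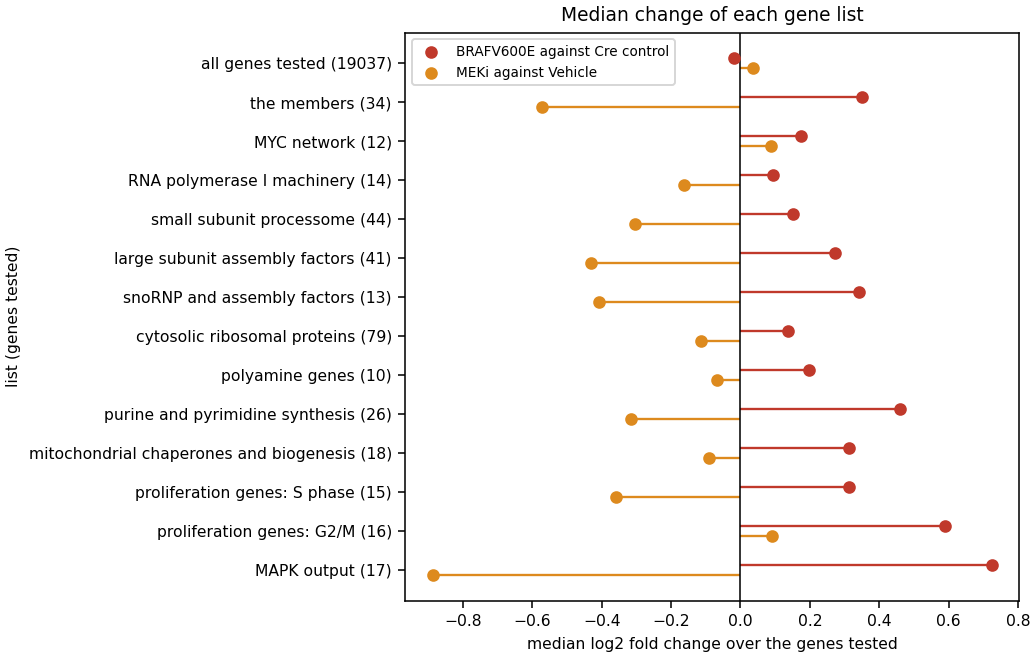
Median log2 fold change over the tested genes of each list (number tested in BRAFV600E against Cre control in brackets) in both comparisons, with all genes tested at the top. The members (0.35 and -0.57) and the other assembly lists lie above 0 in BRAFV600E and below 0 under MEKi, while G2/M genes (0.59 and 0.09) and the MYC network (0.18 and 0.09) lie above 0 in both.

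The cytosolic ribosomal proteins, the products that assembly factors put together, had medians nearer to 0 than the members. Of 79 genes 57 were fitted higher in BRAFV600E with a median of 0.14. The 7 that rose (8.86%, beside 6.4% of all genes) included Rpl7 (0.73), Rps6 (0.65), Rpl23a (0.51), Rpl15 (0.51) and Rpl30 (0.43). Under MEKi 78 of the 79 were fitted lower, but by a median of -0.11 and with 0 called by limma and 0 at an unadjusted p under 0.05.

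Of 26 genes of purine and pyrimidine synthesis 10 rose in BRAFV600E and their median was 0.46. They included the mitochondrial folate enzymes Shmt2 (1.00) and Mthfd1l (1.16), the ribonucleotide reductase subunit Rrm2 (0.59), the kinase Cmpk1 (0.79) and Impdh1 (0.61). Under MEKi 22 of the 26 were fitted lower with a median of -0.31, and Umps, which completes pyrimidine synthesis after Cad, fell by 0.80. In the polyamine list 3 of 10 genes rose in BRAFV600E, the antizyme inhibitor Azin1 (0.80) and the oxidases Paox (1.25) and Smox (0.67), and 0 passed under MEKi by limma (3 at an unadjusted p under 0.05). Azin1 restrains the breakdown of ornithine decarboxylase, whereas Paox and Smox break polyamines down. Of 18 mitochondrial import and chaperone genes 17 were fitted higher in BRAFV600E and 2 rose, Tomm40 (0.70) and Timm23 (0.45). Under MEKi 0 of them passed by limma (3 at an unadjusted p under 0.05). The shares that rose were 38.5% (purine and pyrimidine), 30% (polyamine) and 11.1% (mitochondrial), beside 6.4% of all genes.

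Genes of cell division were measured beside the members because dividing cells use more ribosomes. In BRAFV600E 7 of 31 tested proliferation genes rose (22.6%, beside 6.4% of all genes). They included Tpx2 (0.76), Plk1 (0.65), Cdk1 (1.15), Bub1 (0.70) and Ccna2 (0.76), all of which act in G2 or mitosis. The number called was 1 with slide as a block, 0 by limma within slide 1 and 0 by limma without Cre control arrays 2, 3 and 5. The 16 G2/M genes were all fitted higher with a median of 0.59, and the 15 tested S phase genes had a median of 0.31 with 0 called by limma (9 at an unadjusted p under 0.05). Under MEKi the S phase genes had a median of -0.36 with Mcm3 lower (-0.73), and the G2/M genes a median of 0.09 with 0 called by limma and 0 at an unadjusted p under 0.05. The part of cell division in the members' differences was not tested.

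Markers of cell types moved in both comparisons as well. Of all genes tested, 6.4% rose and 6.51% fell in BRAFV600E. In BRAFV600E 4 of 7 Paneth cell markers fell and none rose (median -2.01), and the mean of this list ran from 4.92 to 5.94 in Cre control and from 2.65 to 4.30 in BRAFV600E. Of 8 stem cell markers 4 fell (median -0.75; list mean 0.28 to 0.59 against -0.40 to 0.01), and 3 of 8 T lymphoid and 3 of 8 myeloid markers fell. So did 4 of 10 enteroendocrine, 3 of 8 goblet and 3 of 8 tuft cell markers, while 1 enteroendocrine and 1 goblet marker rose, and 2 of 8 smooth muscle markers rose. Of 10 enterocyte markers 1 rose and 1 fell, and 1 of 8 B lymphoid markers fell. The goblet list mean ran from 6.06 to 6.57 in Cre control and from 5.39 to 6.27 in BRAFV600E, the enteroendocrine mean from 2.22 to 2.62 and from 1.499 to 2.04, the tuft mean from -0.59 to -0.06 and from -1.31 to -0.71, and the smooth muscle mean from 2.44 to 3.04 and from 2.59 to 3.43. Under MEKi 0 Paneth and 0 goblet markers were called by limma (2 and 3 at an unadjusted p under 0.05), with medians of 0.79 and 0.64. There all 8 stem cell markers were fitted higher with 1 passing (list mean -0.07 to 0.10 in Vehicle and 0.28 to 0.62 under MEKi). The 8 fibroblast and endothelial markers had 0 called by limma and 0 at an unadjusted p under 0.05 in each comparison. Each measured marker of these lists was well above background on some array of each group, except the B lymphoid gene Blk in the Vehicle group. The part of cell composition in the members' differences was not tested.

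The count of members called in BRAFV600E depended on few arrays. Within the slide that held arrays of both groups (6 Cre control and 2 BRAFV600E arrays) 28 of 34 members were fitted higher, the median was 0.29 and 0 passed by limma; with slide as a block the estimates were the same and Hspd1 alone passed (0.98 ± 0.27, limma adjusted p = 0.0465). Without Cre control arrays 2, 3 and 5, left out after the data were seen, 31 were fitted higher, the median was 0.26 and 0 passed. Myc was then 0.50 ± 0.31 (limma adjusted p = 0.407). Without Cre control 1, which had a member mean of 1.85 against at most 1.56 on the other 5, 11 members passed and 8 showed no overlap. Shares of all genes for that fit are not given here. Over the fits with 1 array left out, 1472 to 2950 of all genes passed, against 2459 with every array. Without Cre control 3 or 5 only Cad and Hspd1 passed. With the Y-linked level as a covariate 3 members passed in BRAFV600E (Cad, Hspd1 and Ncl) and 0 under MEKi, where the median was -0.62. Calls in the other lists followed the same arrays: without the 3 low-slope control arrays 0 of 79 ribosomal protein genes and 1 of 44 processome genes passed by limma, as did 2 of 26 purine and pyrimidine genes. Under MEKi, leaving out any single array left 1 large subunit factor called in place of 3 and ended the call of Mcm3.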

How the data were processed

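The authors hybridised 1 array per mouse and extracted it with Agilent Feature Extraction (version 10.5.1.1, per the submitters' processing notes). The deposited values are processed intensity per spot, linear, background-subtracted by the scanner software and not normalized between arrays, with deposited marks per spot for signal above background and outliers. Control and outlier spots were left out, intensities were put on the log2 scale, each array's 75th percentile was subtracted, and spots of a probe were averaged. Probes (56605) were named through RefSeq (GRCm38.p6 names) by accession (34023), symbol (9993) or synonym (318). The 12271 without a symbol were not tested as genes. Those well above background on enough arrays entered only the fit over all probes. Where the text compares probe positions, they are the files' mm9 coordinates.

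Genes well above background on at least 6 of 12 or 4 of 8 arrays were tested with limma (version 3.58.1, R 4.3.3; lmFit and eBayes, no covariates), each comparison on its own arrays and adjusted over all genes tested; all tests were two-sided. All 34 members passed this filter in both comparisons. The fit was tested on simulated data. The array number limits the precision, and separate mice are the replicates. Members and lists were chosen with earlier results of these data known. The text names all members and MYC network genes, and of every other list at most 5 called genes per comparison by smallest adjusted p. Alternatives varied background correction, scaling, filter, probe rule, array weights, Y-linked covariate, slide, threshold and single arrays.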

Additional observations from a re-analysis of the deposited data

Results flagged for a closer look

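In groups of 4 or 6 arrays, a value was marked where its gap to the nearest other array took up most of the group's range (Dixon's critical value). This was so in 15 of 148 groups looked at (10.1%), where chance marks about 1 in 20, and members on 1 array are not independent of each other.

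On Cre control 1 the mean of the 34 members was 1.85, above at most 1.56 on the other control arrays. On Cre control 4 Pes1 (1.69) and Bop1 (1.48) were low, and on Cre control 6 Dctpp1 (1.59). Low values in the BRAFV600E group were Ncl on array 5 (3.44), Npm1 on array 3 (3.55), Wdr43 on array 2 (-0.28) and Tbrg4 on array 4 (-1.47). In the MEKi group Rrp12 was low on array 2 (0.83), Rrs1 high on array 3 (-0.27) and Srm high on array 1 (0.76). In the Vehicle group array 3 was high for Rrp12 (2.39) and Odc1 (4.40), and array 2, the array with pancreas markers, was high for Slc19a1 (3.24) and Tfb2m (0.94).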

How the results depend on the processing

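In BRAFV600E, 28 to 34 members were fitted higher under every alternative (30 to 32 with single arrays left out), and their median stayed between 0.26 and 0.42 except without scaling, where it was 1.16 while the median of all genes was 0.79. Under MEKi 30 to 34 were fitted lower (30 to 33 with single arrays left out), with medians of -0.63 to -0.51. The counts of calls were less stable, and the cause was not tested. No paired analysis was possible because the labels pair none of the arrays.

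Genes called in BRAFV600E were 2459, and 4825 with normexp background, 9343 without scaling and 3856 with array weights. With every probe tested, 3695 probes were called. The count of genes was 1568 with slide as a block, 731 within slide 1 and 445 without 3 control arrays of low spike-in slope. It was 1472 to 2950 with single arrays left out. Members called there were 9 (normexp), 2 (quantile normalization: Cad and Wdr74), 33 (no scaling), 12 (weights), 1 (slide block), 0 (within slide 1), 0 (low-slope arrays out) and 2 to 11 (single arrays out), and those without overlap 1 to 8. Under MEKi, genes called were 374, and 74 without scaling, 234 without a filter, 1209 with weights, 54 with the Y-linked covariate and 76 to 370 with single arrays left out. Members called were 8 (normexp), 0 (no scaling), 2 (no filter), 9 (detected on every array), 2 (every probe), 15 (weights), 0 (Y-linked covariate) and 0 to 2 (single arrays out). Members called in both were 0 with quantile normalization, no scaling, no filter, every probe, the Y-linked covariate, slide block, slide 1 or low-slope arrays out, 5 with weights and 0 to 3 with single arrays left out.

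Some differences that did not pass as reported changed sign. In BRAFV600E these were Grwd1 -0.019 (normexp), Ppan -0.035 (quantile), Wdr43 0.157 and Aimp2 0.712 (no scaling, where all genes shifted; Aimp2 passed there), Rrp12 -0.093 (probe means), Slc19a1 -0.048 (weights), Rrp12 -0.055, Ppan -0.137, Grwd1 -0.071 and Odc1 -0.006 (slide block and within slide 1) and Nop58 -0.054 (low-slope arrays out). With single arrays out they were Slc19a1 (-0.059 to 0.154), Ppan (-0.042 to 0.098) and Grwd1 (-0.024 to 0.151). Under MEKi these were Wdr43 -0.073 and Slc19a1 -0.116 (probe means), Dctpp1 0.049 and Tfb2m 0.058 (weights), Npm1 0.004 (Y-linked covariate) and, with single arrays out, Dctpp1 (-0.199 to 0.023), Tfb2m (-0.185 to 0.037), Slc19a1 (-0.129 to 0.498) and Aimp2 (-0.142 to 0.012).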
